A study of Mus musculus with 5 samples.

Results

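The 10 genes described here are markers of retinal ganglion cells: Rbpms, Pou4f1, Pou4f2, Pou4f3, Thy1, Sncg, Nefl, Nefm, Nefh and Slc17a6. They were taken by symbol from the 25655 genes of a table of RNA-seq counts, and all 10 passed the filter on low counts that left 14992 genes for testing. The retinas came from wildtype C57BL/6 mice of both sexes, aged 8 to 10 weeks when the left optic nerve was crushed. The mice received daily intraperitoneal injections of Sorbinil at 10 mg/kg, an inhibitor of aldose reductase, or of its solvent DMSO, from 24 h before the crush. Whole injured retinas were taken 7 days after the crush, and 3 retinas from DMSO mice (replicates 1, 2 and 3) were compared with 2 from Sorbinil mice (replicates 1 and 3). Sorbinil replicate 2, which the study excluded after a principal component analysis, was not analysed here. Every retina was injured and no uninjured retina was analysed here, so the values compare the treatments and do not measure loss after the crush. The comparison addressed what Sorbinil changed in the retina in a study of delayed axon degeneration.

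Retinal ganglion cells are the output neurons of the retina, and their axons form the optic nerve. They make up a small share of retinal cells, and crushing the nerve cuts their axons and leads to the death of many of them over the following weeks. Their identity is set by transcription factors of the Brn3 family (Pou4f1, Pou4f2 and Pou4f3), and their long axons are filled with neurofilaments (Nefl, Nefm and Nefh). After axon injury the cells also lower the transcripts of several of their own markers before they die. In RNA from a whole retina, fewer ganglion cells and less marker RNA per cell cannot be told apart.

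Total counts ran from 56096541 to 90288552 per retina, and any pair of retinas differed by more than the sampling noise. Levels are given as CPM (read counts scaled to a common library size), scaled by the trimmed mean of M-values (TMM), and differences as the log2 fold change of Sorbinil over DMSO. Sorbinil replicate 1 stood apart from the other 4 retinas. Its summed CPM was 595.4 over 15 amacrine cell genes, against 1460 to 1898 in the other retinas, and 159800 over 15 rod genes, against 83030 to 115100. Mitochondrial genes took 3.70% and 4.05% of counts in Sorbinil replicates 1 and 3, and 1.94% to 2.66% in the DMSO retinas. The log2 fold changes of the markers, and of other genes that were called, are therefore also given without it.

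All 10 markers had a lower mean in Sorbinil than in DMSO retinas, but none passed the threshold used in the study, an unadjusted p-value no higher than 0.1 and at least a 2-fold change. Over all genes tested, 1.35% passed that threshold as lower and 0.360% as higher. The log2 fold changes of the markers ranged from -0.95 to -0.51 with a median of -0.73, against a median of -0.01 over all genes tested. Sncg was the only marker with an unadjusted p-value under 0.05, a limit that 5.01% of all genes passed. Every marker had an adjusted p of 0.758 in edgeR's quasi-likelihood test with Benjamini-Hochberg adjustment. A log2 fold change below 0 was found for 51.0% of all genes.

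The difference lay mostly in Sorbinil replicate 1. It was the lowest of the 5 retinas for 9 of the 10 markers, all but Pou4f3, and for 39.2% of all genes. The markers stood at a median of 38.2% of the DMSO mean in Sorbinil replicate 1 and at 83.9% in Sorbinil replicate 3. On the log2 CPM scale, with a prior count of 2, 7 of 10 were at least 2-fold below the DMSO mean in Sorbinil replicate 1, as were 17.4% of all genes. In Sorbinil replicate 3 this held for 1 marker, Pou4f3, and for 0.914% of all genes. Sorbinil replicate 3 lay inside the DMSO range for 6 markers, against 43.6% of all genes. It was below every DMSO retina for Rbpms, Pou4f3, Sncg and Nefh, and the share of all genes for which this held was not counted. Without Sorbinil replicate 1 the median log2 fold change of the markers was -0.25 and 1 marker, Pou4f3, was called lower, against 0.912% of all genes. Without Sorbinil replicate 3 the median was -1.39 and 7 markers were called lower, against 17.4% of all genes. In that fit 8 markers, all but Pou4f2 and Pou4f3, had an adjusted p under 0.05 (0.00561 to 0.0351 in edgeR's quasi-likelihood test), as did 36.5% of all genes. Each of these fits holds a lone Sorbinil retina, which is assumed to vary like the DMSO retinas.

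The DMSO retinas also differed among themselves. DMSO replicate 3 was the lowest of them for 10 of 10 markers, against 39.2% of all genes, with a median log2 difference of -0.64 from the other DMSO retinas. Sorbinil replicate 3 was above DMSO replicate 3 for 6 of the markers. The summed CPM of the 10 markers was 260.3, 238.6 and 165.0 in DMSO replicates 1 to 3, and 79.2 and 201.6 in Sorbinil replicates 1 and 3. On that sum, which Nefl and Thy1 dominate, Sorbinil replicate 3 lay between the DMSO retinas.

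**Figure D1:**
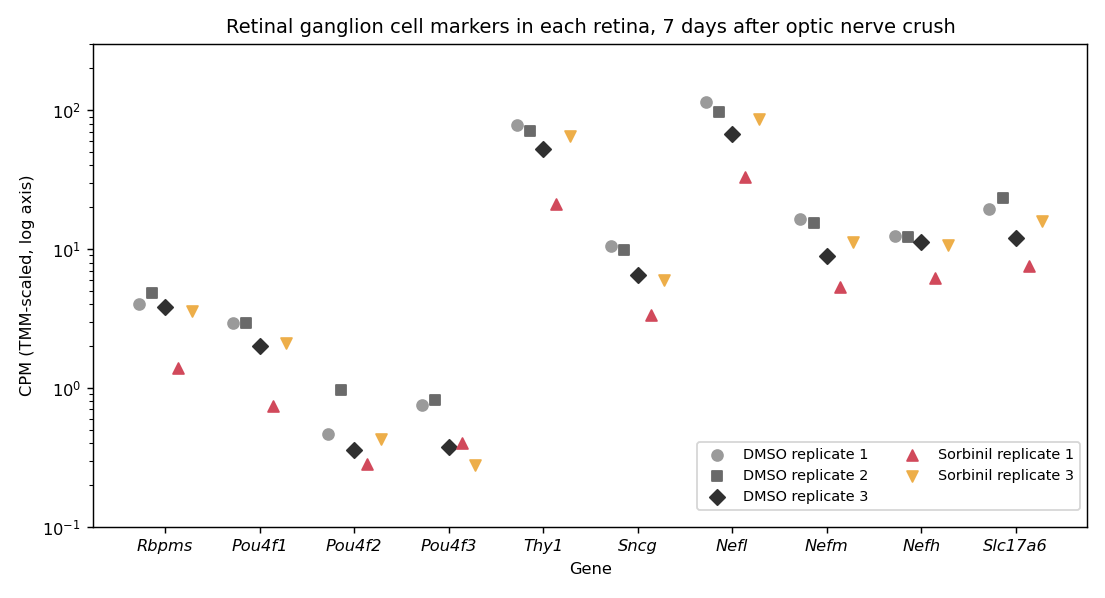
CPM (log axis) of each of the 10 retinal ganglion cell markers, 1 point per retina, by group. Sorbinil replicate 1 is the lowest point for 9 markers, and Sorbinil replicate 3 lies inside the DMSO range for 6.

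Rbpms encodes an RNA-binding protein that, within the retina, marks nearly all ganglion cells and is the usual label for counting them. Its level was 4.0, 4.87 and 3.80 CPM in DMSO replicates 1 to 3, and 1.39 and 3.61 CPM in Sorbinil replicates 1 and 3. Both Sorbinil retinas were below every DMSO retina, which held for 3 of 10 markers and for 10.5% of all genes. The gap was wide for Sorbinil replicate 1, at 32.9% of the DMSO mean, and narrow for Sorbinil replicate 3, at 85.5%. The 95% Poisson interval of Sorbinil replicate 3, which covers counting error only, was 3.17 to 4.09 CPM and included the level of DMSO replicate 3. The log2 fold change was -0.75 (SE 0.43, unadjusted p-value 0.133). Without Sorbinil replicate 1 it was -0.22 (unadjusted p-value 0.368).

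Rbpms is on chromosome 8 (GRCm39, 34272116 to 34420037, minus strand). Part of it overlaps Gtf2e2 on the opposite strand, which had 997 to 1446 counts per retina, against 73 to 389 for Rbpms. The counting was not stated to use strand, so reads of the overlap cannot be assigned with certainty.

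Pou4f1 (Brn3a), a transcription factor of most adult ganglion cells, was at 2.93, 2.92 and 2.02 CPM in the DMSO retinas, and at 0.742 and 2.12 CPM in Sorbinil replicates 1 and 3. The groups overlapped, since Sorbinil replicate 3 was above DMSO replicate 3, while Sorbinil replicate 1 was at 28.3% of the DMSO mean, the lowest share of any marker. The log2 fold change was -0.86 (SE 0.49, unadjusted p-value 0.130), and -0.30 without Sorbinil replicate 1. Pou4f2 (Brn3b), the factor that acts early in ganglion cell differentiation, was at 0.465, 0.963 and 0.360 CPM in DMSO and at 0.285 and 0.427 CPM in Sorbinil. DMSO replicate 2 was far above the other DMSO retinas, and Sorbinil replicate 3 lay between DMSO replicates 1 and 3. The log2 fold change of Pou4f2 was -0.74 (SE 0.55, unadjusted p-value 0.229), and -0.48 without Sorbinil replicate 1. Its counts were only 15 to 77 per retina. The 95% Poisson interval of Sorbinil replicate 1, 0.16 to 0.471 CPM, overlapped those of DMSO replicates 1 (0.339 to 0.623) and 3 (0.22 to 0.556). Counting error alone therefore leaves its difference from them uncertain.

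Pou4f3 (Brn3c), found in fewer types of ganglion cell than the other Brn3 factors, departed from the rest. It was at 0.755, 0.813 and 0.378 CPM in the DMSO retinas, and at 0.40 and 0.28 CPM in Sorbinil replicates 1 and 3. It was the only marker that was lower in Sorbinil replicate 3 than in Sorbinil replicate 1, and DMSO replicate 3 lay between the Sorbinil retinas. Its log2 fold change was -0.95 (SE 0.47, unadjusted p-value 0.0927), so it missed the threshold on size alone. Counts were 19 to 73 per retina. The intervals of Sorbinil replicate 1, 0.247 to 0.611 CPM, and of Sorbinil replicate 3, 0.169 to 0.437 CPM, overlapped each other. The 3 Brn3 genes share a conserved POU domain and lie on chromosomes 14 (Pou4f1, 104699112 to 104705504), 8 (Pou4f2, 79159638 to 79163278) and 18 (Pou4f3, 42527433 to 42530354) of GRCm39. How the counting treated reads that match more than 1 of them was not stated, so their low counts are uncertain.

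Thy1 encodes a surface glycoprotein anchored in the membrane by a lipid, and its promoter is widely used to label ganglion cells. Its level was 78.1, 70.6 and 52.4 CPM in the DMSO retinas, and 21.0 and 65.3 CPM in Sorbinil replicates 1 and 3. Sorbinil replicate 3 lay inside the DMSO range, at 97.4% of the DMSO mean, while Sorbinil replicate 1 was at 31.3%. The log2 fold change was -0.64 (SE 0.48, unadjusted p-value 0.233). Without Sorbinil replicate 1 it was -0.03, the smallest of the 10 markers. Thy1 is on chromosome 9 (43954332 to 43959880, plus strand), where no other annotated gene overlaps it.

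Sncg encodes gamma-synuclein, a small cytosolic protein abundant in ganglion cell bodies and axons. It was at 10.5, 9.88 and 6.55 CPM in the DMSO retinas, and at 3.35 and 6.00 CPM in Sorbinil replicates 1 and 3. Both Sorbinil retinas were below every DMSO retina, and the nearest pair was Sorbinil replicate 3 and DMSO replicate 3. Its log2 fold change of -0.94 (SE 0.34) had the smallest unadjusted p-value of the markers, 0.0356, but fell short of a 2-fold change. Leaving out each retina in turn moved it between -1.42 without Sorbinil replicate 3 and -0.57 without Sorbinil replicate 1, where the unadjusted p-value was 0.0860. Sncg is on chromosome 14 (34092231 to 34100539, minus strand) and overlaps Mmrn2 on the opposite strand, which had 16 to 184 counts per retina. Sncg had 176 to 1010 counts per retina. Strand use in the counting was not stated, so reads of this overlap cannot be assigned with certainty either.

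The neurofilament subunits form the heteropolymers that set axon calibre. The light chain Nefl was at 115, 97.5 and 67.4 CPM in the DMSO retinas, and at 33.1 and 86.0 CPM in Sorbinil replicates 1 and 3. The medium chain Nefm was at 16.5, 15.5 and 8.93 CPM in DMSO and at 5.33 and 11.2 CPM in Sorbinil. For both subunits Sorbinil replicate 1 was below every other retina, and Sorbinil replicate 3 lay between DMSO replicates 2 and 3. The log2 fold changes were -0.65 (SE 0.44) for Nefl and -0.72 (SE 0.41) for Nefm. Their unadjusted p-values were 0.195 and 0.134. The log2 values were -0.11 for Nefl and -0.28 for Nefm without Sorbinil replicate 1.

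The heavy chain Nefh was the tightest marker among the DMSO retinas, at 12.5, 12.3 and 11.3 CPM (mean 12 ± 0.665, SD, n = 3). It was at 6.18 and 10.7 CPM in Sorbinil replicates 1 and 3. Both Sorbinil retinas were below every DMSO retina, and Sorbinil replicate 3 stood at 88.8% of the DMSO mean. Its log2 fold change, -0.51 (SE 0.26), was the smallest of the 10, with an unadjusted p-value of 0.0981. It was -0.16 without Sorbinil replicate 1.

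Within a retina, the ratio of Nefm to Nefl counts moved little, at 14.3%, 15.9% and 13.3% in DMSO and 16.1% and 13.0% in Sorbinil. The ratio of Nefh to Nefl was 10.8%, 12.6% and 16.7% in DMSO, and 18.7% and 12.4% in Sorbinil replicates 1 and 3. These ratios do not depend on the scaling of the libraries. Sorbinil replicate 1 was the highest for both ratios, but above the nearest DMSO retina by less than the DMSO retinas differed among themselves.

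Nefl lies on chromosome 14 (68321268 to 68326544, plus strand), wholly inside the annotated span of Nefm on the minus strand (68320039 to 68362305). Nefh is on chromosome 11 (4888740 to 4898130, minus strand) and overlaps Ap1b1 on the opposite strand. Ap1b1 had 19137 to 30840 counts per retina, far more than the 325 to 1206 of Nefh. Reads from the overlapping stretches cannot be told apart where strand was not used.

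Slc17a6 encodes VGLUT2, the vesicular transporter that loads glutamate into the synaptic vesicles of ganglion cells. Its level was 19.5, 23.3 and 11.9 CPM in the DMSO retinas, and 7.50 and 16.0 CPM in Sorbinil replicates 1 and 3. Sorbinil replicate 3 lay inside the DMSO range, and Sorbinil replicate 1 was at 41.1% of the DMSO mean. The log2 fold change was -0.64 (SE 0.42, unadjusted p-value 0.180), and -0.18 without Sorbinil replicate 1. Slc17a6 is on chromosome 7 (51271434 to 51320867, plus strand), where a long non-coding gene overlaps it on the opposite strand.

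**Figure D2:**
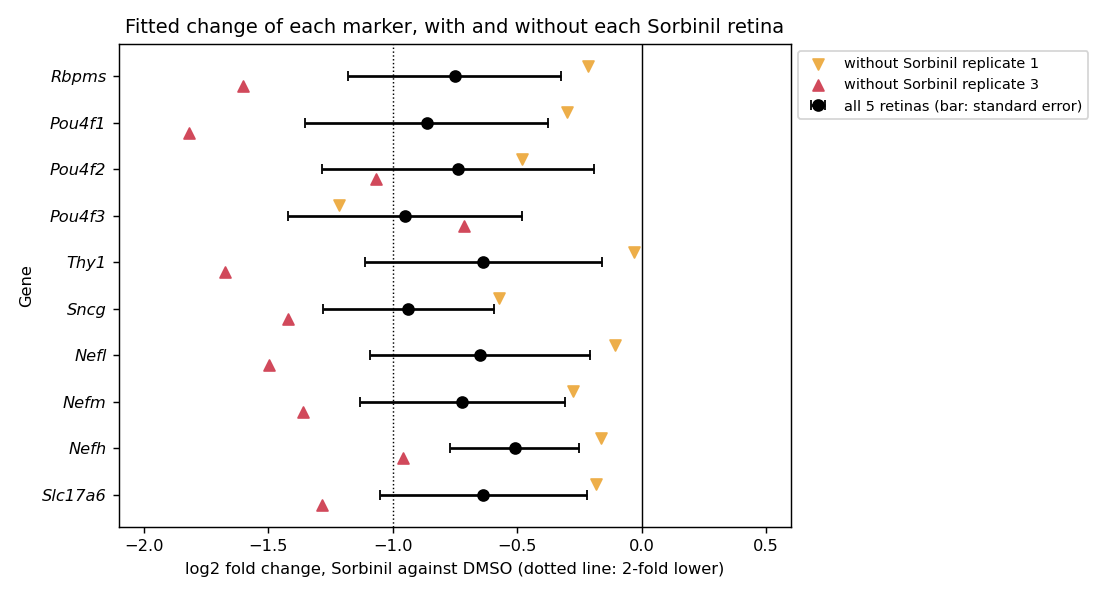
Log2 fold change of Sorbinil over DMSO for the 10 markers, from the fit of all 5 retinas (black points, bars of 1 SE) and from fits without Sorbinil replicate 1 or 3 (triangles); the dotted line marks a 2-fold lower level. All values are below 0, and without Sorbinil replicate 1 they lie nearer to 0 for every marker but Pou4f3.

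Per kilobase of the Ensembl canonical transcript, the DMSO levels ordered the markers from Thy1 (35.5 ± 6.99 CPM per kb, SD, n = 3) and Nefl (27.3 ± 7.07) down to Pou4f3 (0.252 ± 0.0919) and Pou4f2 (0.186 ± 0.10). Slc17a6 (4.09 ± 1.30), Nefm (4.08 ± 1.23) and Nefh (2.95 ± 0.163) came next below Nefl. Sncg (1.93 ± 0.454) and Rbpms (1.62 ± 0.217) followed, and then Pou4f1 (0.580 ± 0.116). The DMSO ranges overlapped between neighbours in that order for Thy1 and Nefl, Slc17a6 and Nefm, Nefm and Nefh, Sncg and Rbpms, and Pou4f3 and Pou4f2. Levels of the other neighbours did not overlap. The order depends on the length used. Per kilobase of all annotated exons, Thy1 (15 CPM per kb) was below Nefl (27.3) and Nefm (2.3) below Nefh (2.95). Rbpms, which has long annotated exons, was at 0.249 CPM per kb on that scale, below Pou4f1 (0.552) and level with Pou4f3 (0.249).

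Promoter sequence is shown for 3 of the markers, to set the base composition of markers with like values side by side. RefSeq promoters of 300 bases, from 250 before to 50 bases from the start on build GRCm38.p6, were matched for Pou4f1, Pou4f2, Sncg and Slc17a6. Rbpms, Thy1, Nefl, Nefm and Nefh had no match, and Pou4f3 was left out. The first is Sncg at chr14:34374620-34374919 on the minus strand, the second Pou4f1 at chr14:104467950-104468249 on the minus strand, and the third the downstream start of Slc17a6 at chr7:51624387-51624686 on the plus strand. Capitals mark GGGCGG on either strand (the GC box of Sp1 factors) in Sncg and Pou4f1. In Slc17a6 they mark ATTAAT and TAATTA on either strand, AT-rich words of the kind that POU and homeodomain factors bind, which overlap there.
Sncg: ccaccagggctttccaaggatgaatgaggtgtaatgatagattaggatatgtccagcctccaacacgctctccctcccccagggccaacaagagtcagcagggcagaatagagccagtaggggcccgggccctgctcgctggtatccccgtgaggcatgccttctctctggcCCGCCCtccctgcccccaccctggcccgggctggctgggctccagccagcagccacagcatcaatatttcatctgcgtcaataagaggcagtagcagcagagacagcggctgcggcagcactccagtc
Pou4f1: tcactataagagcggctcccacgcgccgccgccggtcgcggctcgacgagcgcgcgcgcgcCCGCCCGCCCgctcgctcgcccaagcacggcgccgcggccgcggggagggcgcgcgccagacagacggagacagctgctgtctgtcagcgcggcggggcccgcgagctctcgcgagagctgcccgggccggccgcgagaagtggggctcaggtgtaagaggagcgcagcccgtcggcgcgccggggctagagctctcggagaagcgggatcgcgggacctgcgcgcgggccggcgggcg
Slc17a6: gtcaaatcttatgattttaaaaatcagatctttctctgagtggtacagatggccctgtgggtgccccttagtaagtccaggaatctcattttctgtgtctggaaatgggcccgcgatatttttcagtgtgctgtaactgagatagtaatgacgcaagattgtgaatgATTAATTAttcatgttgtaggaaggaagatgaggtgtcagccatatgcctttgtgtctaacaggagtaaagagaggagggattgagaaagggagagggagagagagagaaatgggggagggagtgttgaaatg
GGGCGG was found in 4 of the 5 matched promoters, once in Sncg, and in 35.7% of all 32851 promoters in the table. ATTAAT was found in 1 of the 5, that of Slc17a6 printed here, and in 4.75% of all promoters, and TAATTA in the same 1 and in 5.29%. The GC content was 61.3% for Sncg, 78.3% for Pou4f1 and 43.0% for this start of Slc17a6, against a median of 52.7% over all promoters. A match is a description of the letters and not a binding site. The fold changes of the 3 genes, -0.94, -0.86 and -0.64, were within their standard errors of one another.

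Other lists of ganglion cell genes had smaller median differences than the 10 markers, and these differences between lists were not tested. Of 15 further transcription factors of ganglion cells or their types, 14 had a log2 fold change below 0, with a median of -0.34 and 0 called. The most abundant was Isl1, a LIM homeodomain factor also used by other retinal neurons, at a mean of 48.2 CPM in DMSO and 32.4 CPM in Sorbinil. Isl1 differed by -0.57 on the log2 scale (unadjusted p-value 0.143). The lowest was Barhl2 (-0.71, unadjusted p-value of 0.123), a factor shared with amacrine cells, and the highest was Atoh7 (0.03), the factor that makes progenitors competent to form ganglion cells. The median of the list without Sorbinil replicate 1 was 0.09, with 5 of 15 below 0, and Isl1 and Barhl2 were at -0.11 and -0.20.

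Of 15 other genes of ganglion cells or of their types, 13 were below 0 with a median of -0.43, and 1 was called, Opn4. It encodes melanopsin, the photopigment of the intrinsically photosensitive ganglion cells. Opn4 was at 1.63, 2.00 and 1.37 CPM in DMSO and at 0.362 and 1.16 CPM in Sorbinil replicates 1 and 3, from 19 to 160 counts. Both Sorbinil retinas were below every DMSO retina, most of all Sorbinil replicate 1. The log2 fold change was -1.11 (SE 0.53, unadjusted p-value 0.0828), and its adjusted p was 0.758 in edgeR's quasi-likelihood test. Leaving out Sorbinil replicate 1, it was -0.51 (SE 0.33, unadjusted p-value 0.173) and Opn4 was not called. The median of the 15 genes was then -0.02, with 9 below 0.

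Of 14 genes of the neuronal cytoskeleton, 13 were below 0 with a median of -0.43 and 0 were called. Map1b, a microtubule-associated protein of growing and mature axons, was the exception. It was at 1234, 1456 and 1506 CPM in DMSO and at 2711 and 1870 CPM in Sorbinil, with both Sorbinil retinas above every DMSO retina. For Map1b the log2 fold change was 0.71 (SE 0.23, unadjusted p-value 0.0233). The lowest of these genes was Tubb2a, a beta-tubulin (-0.62, unadjusted p-value of 0.144). Tubb3 and Stmn3 were looked at after their values were seen. Tubb3, the neuronal beta-tubulin often stained to label axons, was at 68.7, 65.3 and 62.7 CPM in DMSO and at 48.2 and 57.4 CPM in Sorbinil, and its log2 fold change was -0.31 (SE 0.13, unadjusted p-value 0.0530). Stmn3, a microtubule regulator, was at 98.8, 87.6 and 85.7 CPM in DMSO and at 59.9 and 73.1 CPM in Sorbinil, with a log2 fold change of -0.45 (SE 0.14) and an unadjusted p-value of 0.0222. For both, every Sorbinil retina was below every DMSO retina. Without Sorbinil replicate 1 the median of the 14 genes was 0.02, with 7 below 0, and Map1b was at 0.43, Tubb2a at -0.11, Tubb3 at -0.18 and Stmn3 at -0.30.

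Genes of other retinal cells moved with the ganglion cell markers in Sorbinil replicate 1. The median log2 difference from the DMSO mean there was -1.34 over the 10 markers, -1.41 over 15 amacrine genes, -1.14 over 15 bipolar genes and -1.43 over 12 Müller glia genes. It was -0.76 over 7 horizontal cell genes, -1.37 over 6 astrocyte genes, -0.89 over 14 microglia genes and -1.95 over 15 genes of endothelium and pericytes. It was 0.56 over 15 rod genes and 0.45 over 10 cone genes. No gene of these lists was at 0 in any retina. In Sorbinil replicate 3 the medians were -0.22 for the markers, 0.11 for amacrine, -0.02 for bipolar and 0.02 for Müller glia genes. Endothelium and pericyte genes were at -0.37, rod genes at -0.31, cone genes at -0.22 and microglia genes at -0.10. Horizontal cell genes were at 0.09 and astrocyte genes at 0.10. Ganglion cell transcription factors were at 0.09, cell type genes at -0.01 and cytoskeleton genes at 0.03, between the bipolar and amacrine medians there. Genes listed as induced in ganglion cells after axon injury were at -0.06, below the bipolar median. A DMSO retina had a like gap between the markers and amacrine, bipolar and Müller glia genes. Against the other DMSO retinas, DMSO replicate 3 had the markers at -0.64, amacrine genes at -0.29, bipolar genes at -0.01 and Müller glia genes at -0.26. The part of these shifts in the markers' values was not tested.

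Over both Sorbinil retinas, the median log2 fold change was -0.48 for amacrine genes (15 of 15 below 0), -0.42 for bipolar genes (13 of 15), -0.58 for Müller glia genes (12 of 12), -0.48 for astrocyte genes (6 of 6) and -0.27 for horizontal cell genes (5 of 7). It was -0.46 for microglia genes (14 of 14), 0.16 for rod genes (1 of 15 below 0) and 0.14 for cone genes (2 of 10). None of the genes on those lists was called. The endothelial list had a median of -0.72, like that of the ganglion cell markers, with 15 of 15 below 0. In it 6 were called lower (Cdh5, Cldn5, Tek, Tie1, Emcn and Erg, at -2.24 to -1.32). Each of the 6 had an adjusted p of 0.758 in edgeR's quasi-likelihood test. Their counts in Sorbinil replicate 1 were low, from 1 (Emcn) and 4 (Erg) to 72 (Cldn5). Without Sorbinil replicate 1 the median of the endothelial list was -0.37 with 12 of 15 below 0. Cdh5 was then at -1.30, Cldn5 at -1.15, Tek at -0.79, Tie1 at -1.30, Emcn at -1.04 and Erg at -1.65. The medians of amacrine, bipolar and Müller glia genes were then 0.10, -0.01 and 0.02.

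**Figure D3:**
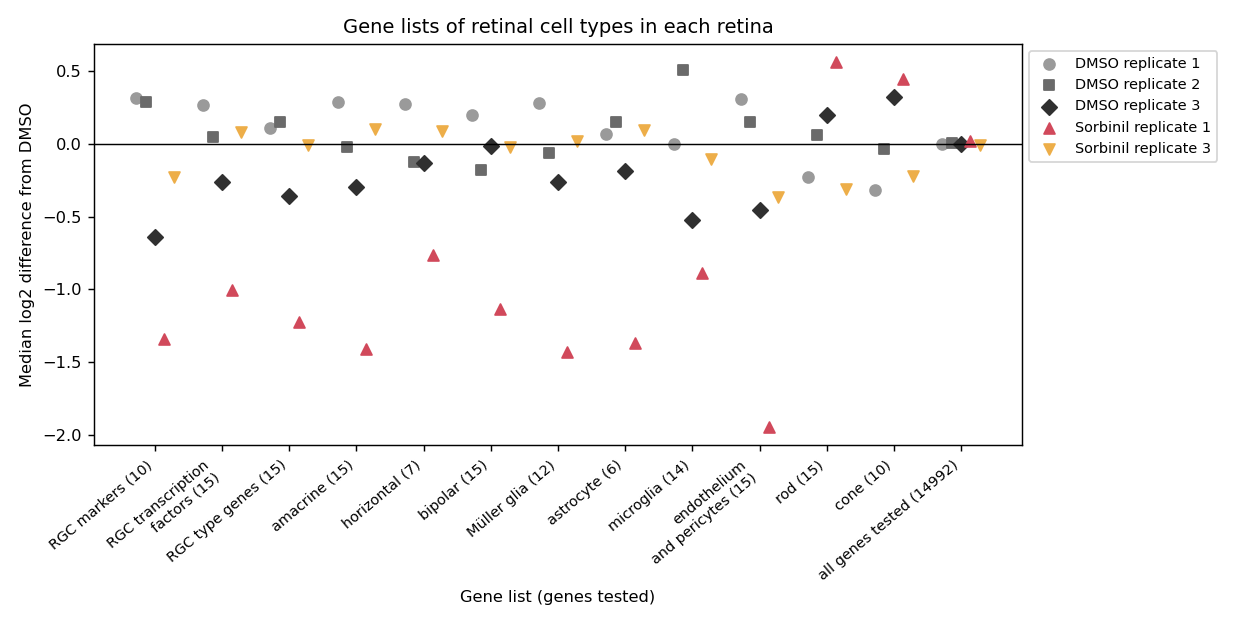
Median log2 difference of each gene list in each retina, against the DMSO mean for Sorbinil retinas and against the other DMSO retinas for DMSO retinas. In Sorbinil replicate 1 the ganglion cell markers (-1.34) lie with amacrine (-1.41), bipolar (-1.14) and Müller glia genes (-1.43), and apart from rod genes (0.56).

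The markers were therefore also expressed relative to amacrine cells, the neurons that share the innermost cell layers with ganglion cells, by setting each library's scale from the 15 amacrine genes. On this scale the markers stood at a median of 102.1% of the DMSO mean in Sorbinil replicate 1 and at 75.9% in Sorbinil replicate 3, the reverse of the order under TMM. In Sorbinil replicate 1, 5 of 10 markers were below the DMSO mean, and 6 were inside the DMSO range. In Sorbinil replicate 3, 10 of 10 were below the DMSO mean. In the same retina 7 were below every DMSO retina, against 43.8% of all genes. The shares of all genes below the DMSO mean or inside the DMSO range were not counted on this scale. No marker had an unadjusted p-value under 0.224.

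Single markers differed on the amacrine scale. Pou4f1 was at 2.21, 2.44 and 1.91 in DMSO and at 1.64 and 1.61 in both Sorbinil retinas, in scaled CPM, so that the Sorbinil retinas nearly coincided and lay below every DMSO retina. For Pou4f1 the log2 fold change was then -0.43 (SE 0.32, unadjusted p-value 0.224). Thy1 was also below every DMSO retina in both, at 46.5 and 49.4 in Sorbinil against 49.7 to 59.0 in DMSO. The share of all genes for which this held was not counted on this scale. Pou4f3 was split, at 165% and 39.5% of the DMSO mean in Sorbinil replicates 1 and 3. Sncg was at 7.87, 8.26 and 6.20 in DMSO and at 7.42 and 4.54 in Sorbinil, with Sorbinil replicate 1 inside the DMSO range. Nefl was at 86.9, 81.5 and 63.8 in DMSO and at 73.2 and 65.1 in Sorbinil, inside the DMSO range in both. Nefh turned direction, to a log2 fold change of 0.10 (SE 0.37), and stood at 135% and 79.8% of the DMSO mean in Sorbinil replicates 1 and 3.

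**Figure D4:**
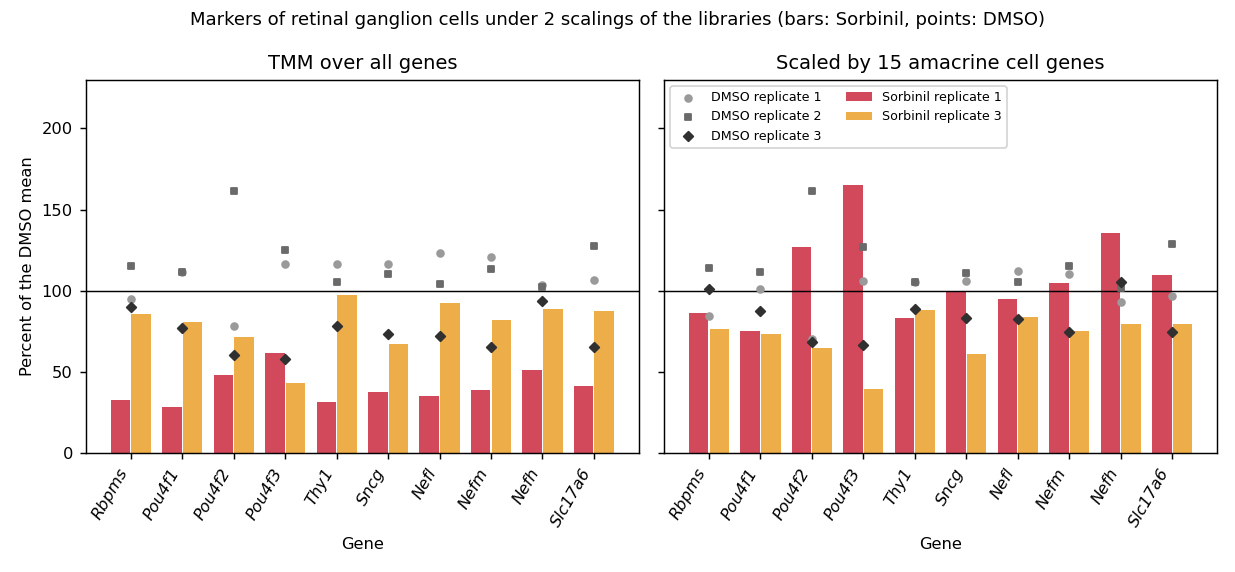
Level of each marker in each retina as a percent of the DMSO mean, under TMM (left) and scaled by 15 amacrine genes (right), with bars for the Sorbinil retinas and points for the DMSO retinas. The bars of Sorbinil replicate 1 have a median of 38.2% on the left and 102.1% on the right, and those of Sorbinil replicate 3 of 83.9% and 75.9%.

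Ratios to a single amacrine cell gene need no scaling at all. Nefl counts were 41.6%, 42.3% and 33.1% of Gad1 counts in DMSO, where Gad1 makes the transmitter GABA of many amacrine cells, and 42.1% and 34.0% in Sorbinil. Rbpms counts were 1.45%, 2.11% and 1.87% of Gad1 counts in DMSO, and 1.77% and 1.43% in Sorbinil. Thy1 counts were 28.2%, 30.6% and 25.8% of Gad1 counts in DMSO, and 26.8% and 25.8% in Sorbinil. The groups overlapped or touched in these 3 ratios, and Sorbinil replicate 3 was below Sorbinil replicate 1 in each.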

How the data were processed

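Per the labels, total RNA of whole retinas was sequenced in reverse-stranded libraries, and the authors used CLC Genomics Workbench at default settings, with GRCm39 as the reference. The deposited values are raw read counts per gene and retina, 1 column per retina. Counts were tested with edgeR 4.0.16 in R 4.3.3 (genes kept by filterByExpr at a minimum count of 10, TMM, quasi-likelihood test, treatment as the only term, Benjamini-Hochberg over 14992 genes). SE is the size of the log2 fold change over the square root of F. Levels are TMM-scaled CPM, and log2 CPM used a prior count of 2. The amacrine scale sets a library's size factor to its median ratio over 15 genes. Replicates are labelled as separate retinas. Positions are from GENCODE vM39. The markers and gene lists were chosen with earlier results of these data known. All 10 markers are named. From the other lists of ganglion cell genes, the text names called genes, or else the most abundant, the lowest and the highest by log2 fold change. Lists of other cells are given by counts and medians. Some genes that this rule names are not reported here. Other normalizations, filters and tests, a replicate block and leaving out each retina were tried, and the fits were tested on simulated counts.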

Additional observations from a re-analysis of the deposited data

How the results depend on the processing

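With DESeq2 size factors, upper-quartile scaling, both other filters on low counts, the likelihood ratio test, DESeq2's Wald test and a replicate block, 0 of the 10 markers were called and all 10 stayed below 0. Library size alone called 2 markers lower, Pou4f3 and Sncg, and 202 of all 14992 genes tested. Leaving out a retina called 0 to 7 markers and moved their median from -1.39 (without Sorbinil replicate 3) to -0.25 (without Sorbinil replicate 1), against -0.73. Without DMSO replicate 3, 2 markers were called lower, as were 227 of all 14998 genes tested. The median was -0.16 under amacrine scaling, and -0.28 and -0.12 under bipolar and Müller glia scaling, both chosen after seeing the data. Nefh reversed to 0.10 (amacrine) and 0.14 (Müller glia). These scalings moved the median of all genes to 0.81, 0.64 and 0.83. Over all genes, 257 were called (203 lower). The count was 408 with no filter on low counts, 148 with at least 10 counts in every sample, 168 at an unadjusted p of at most 0.05, 2173 (73 lower) under amacrine, 2134 (81 lower) under bipolar and 3260 (63 lower) under Müller glia scaling, and 164 to 2903 when a retina was left out, lowest without DMSO replicate 1 and highest without Sorbinil replicate 3. At an adjusted p under 0.05, 0 genes passed edgeR's quasi-likelihood test (751 at an unadjusted p under 0.05), 14 the likelihood ratio test, 21 DESeq2, 4 the replicate block and 5576 the fit without Sorbinil replicate 3. The groups share replicate numbers 1 and 3 only, and the deviations of same-numbered retinas from their group means correlated at -0.24 and -0.12. With 2 Sorbinil retinas these deviations mirror each other, so the correlations cannot decide whether the numbers pair retinas. The numbers were not taken to pair them. The replicate block called 203 genes and gave a median of -0.70 for the markers. The causes were not tested. With 2 Sorbinil retinas, the size of every value leans heavily on 1 retina, and counts of 15 to 77 limit Pou4f2 and Pou4f3.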

Other observations

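Relatives of the markers were far more abundant than the markers in part, and were mostly not specific to ganglion cells. Slc17a7, the vesicular glutamate transporter of photoreceptors and bipolar cells, was at 1180 CPM per kb in DMSO, against 4.09 for Slc17a6, and beta-synuclein (Sncb) at 311, against 1.93 for Sncg. Slc17a7 had a log2 fold change of 0.12. Of the 10 relatives, 8 were below 0, with a median of -0.29 and 0 called. Pou2f1, a widely expressed POU factor, was the highest, at 67.6, 72.5 and 72.6 CPM in DMSO and at 145.6 and 92.3 CPM in Sorbinil, both above every DMSO retina. Its log2 fold change was 0.75 (SE 0.20, unadjusted p-value 0.0116), and 0.39 without Sorbinil replicate 1.

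Of 13 genes listed as induced in ganglion cells after axon injury, 12 were tested, 10 were below 0 with a median of -0.43, and 0 were called. RNA of a whole retina does not show which cells expressed them. Jun, the most abundant, was at a log2 fold change of -0.17, and Gadd45a, the highest, at 0.22. Lcn2, the lowest at -1.37, was at 27.1 CPM in DMSO replicate 2 and at 3.98 to 5.48 CPM in the other 4 retinas. DMSO replicate 2 alone stood apart for Lcn2.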
